A study of Zea mays with 6 samples.

Results

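The loci described here lie in stretches of the maize (Zea mays) chromosomes where few loci were listed. Each listed locus of chromosomes 1 to 10 was assigned by its start to a 10-Mb window, and all loci of windows holding fewer than 60 were taken, leaving out chromosome 2 from 30 to 110 Mb and the last window of each chromosome. This gave 906 loci in 20 windows, out of 32666 loci in all. They were set against the 15845 loci of the 61 windows that hold 200 or more, called gene-rich below. The gene-rich windows kept the regions left out above, which hold 8 of the 61. Values came from 3 libraries of o11 homozygous mutants and 3 wild-type (WT) libraries of total RNA, all at 15 days after pollination (DAP). The labels name the tissue as kernel, which includes the embryo and maternal layers, whereas the text on the design of the series names endosperm. No further allele, background or pedigree was given. No label says whether the libraries of a genotype came from separate plants, so the spread behind each p-value is that of these libraries and may be technical. Since loci carry no names, the tissue could not be checked against marker genes, and in bulk RNA fewer cells of a type and less RNA per cell cannot be told apart.

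Maize chromosomes carry most of their genes towards the arms, while the central regions around the centromeres are filled with transposable elements, recombine rarely and hold few genes. Genes there can span long distances because transposons sit in their introns. The opaque11 (o11) gene encodes a transcription factor of the basic helix-loop-helix family that acts in the endosperm, which fills the kernel with starch and storage protein. Whether the gene-poor windows overlap the centromeres was not examined, since no annotation of the build, B73 RefGen_v3, was at hand. For the same reason the loci are given by position without gene names and no sequence is shown.

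The windows are gene-poor by listed loci, and the list itself depends on detection: no locus of the files was at 0 in every library. Levels are FPKM, which scale fragments by the length of the transcript and the number of mapped fragments. The lengths used were not given, and they are not the spans below, which include introns. The sequencing depth is unknown, but the steps between low values put the libraries, as a rough estimate, at 0.896 to 1.30 of the depth of WT replicate 1. In a component analysis of the log2 values the replicate 3 libraries of both genotypes stood apart, at 71.5 and 62.8 on component 1 against -51.3 to -17.7 for the other libraries. Summed FPKM of the plastid and mitochondrial loci, used only as a rough sign of RNA quality, differed by replicate number. In o11 it was 35.1, 228 and 54.7 in replicates 1 to 3, and in WT 37.0, 268 and 143. The part of these differences in the results below was not tested.

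The gene-poor windows lay on 9 of the chromosomes, with none on chromosome 9, and mostly formed runs. Runs of 3 windows lay on chromosome 4 (90 to 120 Mb), chromosome 5 (100 to 130 Mb), chromosome 7 (50 to 80 Mb) and chromosome 10 (30 to 60 Mb). Chromosome 8 had 2 (40 to 60 Mb) and chromosome 3 had 3 (70 to 90 Mb and 100 to 110 Mb). Single windows lay on chromosome 1 (130 to 140 Mb), chromosome 2 (120 to 130 Mb) and chromosome 6 (10 to 20 Mb). The sparsest, on chromosome 3 from 70 to 80 Mb, held 28 loci. Just inside the limit were windows of 59 loci (chromosome 10, 30 to 40 Mb) and 58 loci (chromosome 5, 120 to 130 Mb), with 64.7% and 66.4% of their loci at 1 FPKM or more as the mean of 6 libraries. Just outside it were windows of 61 loci (chromosome 3, 90 to 100 Mb) and 62 loci (chromosome 1, 140 to 150 Mb), with 64.2% and 71.8%.

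Gene-poor loci were both more isolated and more unequal in span than gene-rich loci. The median distance from one locus to the next was 137 kb in gene-poor windows and 14.5 kb in gene-rich windows, and 36.8% of gene-poor loci against 0.80% of gene-rich loci had no listed neighbour within 100 kb. The longest empty stretch before a gene-poor locus was 1375 kb. The median span, from the start to the end of a locus with introns included, was 2784 bases in gene-poor and 3142 bases in gene-rich windows. At the long end the order turned: the upper quartile was 6198 bases against 5365, and 4.86% of gene-poor loci (44 of 906) against 0.95% of gene-rich loci spanned 30 kb or more. The longest gene-poor locus spanned 171122 bases. At the short end, loci of 501 to 1000 bases made up 13.5% of gene-poor and 9.44% of gene-rich loci.

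A smaller share of gene-poor loci was expressed. In o11 libraries 54.1%, 54.7% and 54.3% of gene-poor loci reached 1 FPKM in replicates 1 to 3, and in WT libraries 52.1%, 54.1% and 52.4%. In gene-rich windows the shares were 70.5%, 72.3% and 70.0% in o11 libraries and 68.1%, 71.3% and 67.5% in WT libraries. Thus every library had a lower share in gene-poor windows, by 15.1 to 17.6 percentage points (mean difference -16.4, SD 0.92 over 6 libraries), and the ranges of the window kinds did not overlap. The shares are descriptive, since the same loci are counted in each library, and no p-value was computed for them. Loci listed at 0, which can be failed estimates, made up 15.8% ± 2.16 of gene-poor loci in o11 and 18.1% ± 1.61 in WT libraries. In gene-rich windows they made up 8.32% ± 1.13 in o11 and 9.70% ± 1.35 in WT libraries (SD, n = 3 each).

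**Figure D1:**
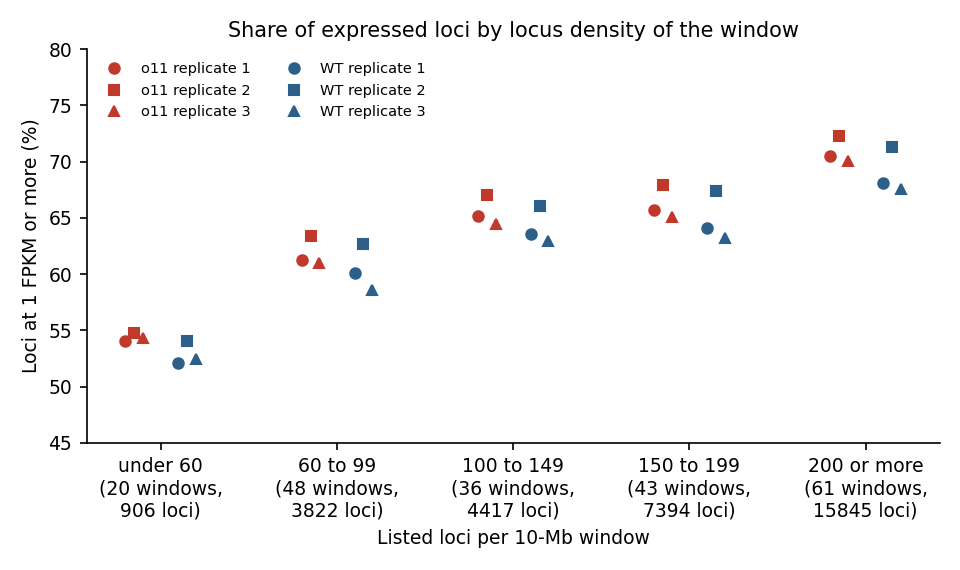
Share of loci at 1 FPKM or more (vertical axis, %) in each library, by the number of listed loci per 10-Mb window (horizontal axis); red symbols are o11 and blue symbols WT libraries, with a shape per replicate, and the axis starts at 45%. Shares lie between 52.1% and 54.7% in windows under 60 loci and between 67.5% and 72.3% in windows of 200 or more.

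The share followed the number of loci in a window step by step. Averaged over libraries it was 53.6% in windows under 60 loci, 61.2% from 60 to 99, 64.9% from 100 to 149, 65.6% from 150 to 199 and 70.0% from 200 up. Only the class under 60 leaves out the regions named at the start. Over the 192 windows with at least 20 loci outside the regions left out, Pearson's r between the number of loci and the share was 0.57 and Spearman's rho 0.57, and within the 20 gene-poor windows they were 0.28 and 0.27. These are descriptions across windows, which share the same libraries. Single gene-poor windows ranged widely, with the highest share on chromosome 5 from 120 to 130 Mb (66.4% of 58 loci) and the lowest on chromosome 3 from 100 to 110 Mb (42.0% of 46 loci). Set against the gene-rich windows of their own chromosome, gene-poor loci had the lower mean share on all 9 chromosomes. The difference was largest on chromosome 6 (-28.2 percentage points, from 37 gene-poor loci) and smallest on chromosome 4 (-9.32 points, from 126).

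The median level over all loci was lower in gene-poor windows, while among loci at 1 FPKM or more the levels lay closer together. The median over all loci was 1.55 ± 0.13 FPKM in o11 and 1.36 ± 0.14 FPKM in WT for gene-poor windows, and 4.74 ± 0.28 FPKM in o11 and 4.33 ± 0.39 FPKM in WT for gene-rich windows (SD, n = 3 libraries each). On the log2(FPKM + 1) scale the medians differed by -1.17 (SD 0.03 over 6 libraries, range -1.21 to -1.13). Of the gene-poor loci 410 (45.3%) were at 1 FPKM or more in all 6 libraries, against 9704 (61.2%) of the gene-rich loci. These loci had a median of 11.2 FPKM in gene-poor and 12.3 FPKM in gene-rich windows, and the log2 medians differed by -0.11. Among the loci at 1 FPKM or more in each library taken alone, the log2 medians differed by -0.20 to -0.18 in o11 and by -0.24 to -0.11 in WT libraries. Both sets were chosen by level. Another 336 gene-poor loci (37.1%) reached 1 FPKM in no library, against 22.1% of gene-rich loci. As a share of all listed loci, those at 1 FPKM in some libraries but not in others were alike, at 17.7% and 16.6%. Among loci that reached 1 FPKM in any library they were relatively more in gene-poor windows. There they numbered 160 beside 410 constant loci, against 2632 beside 9704 in gene-rich windows.

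**Figure D2:**
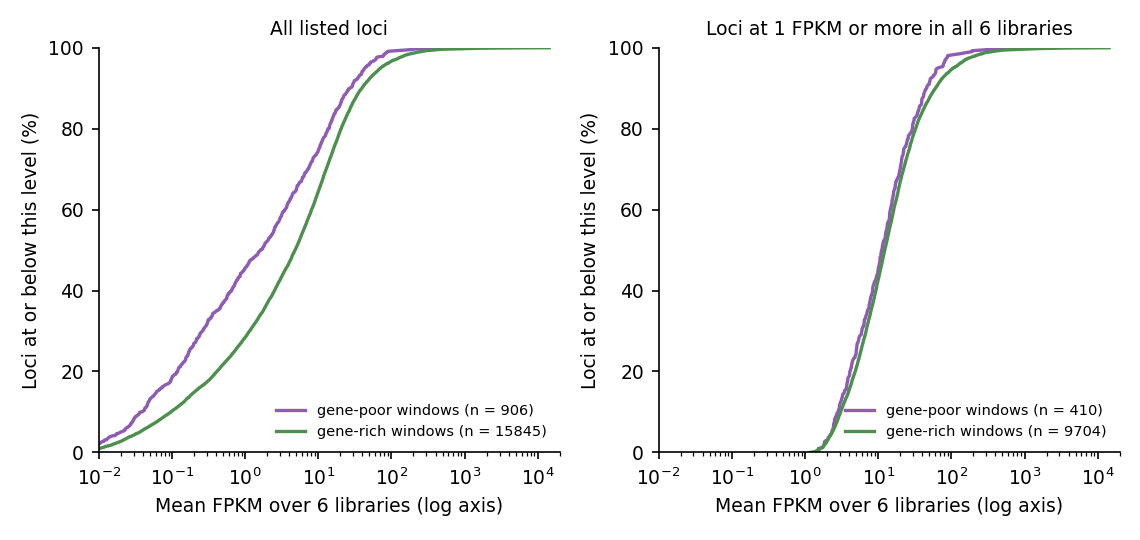
Cumulative share of loci (vertical axis, %) against mean FPKM over the 6 libraries (horizontal axis, log scale), for gene-poor (purple) and gene-rich (green) windows; left, all listed loci, and right, loci at 1 FPKM or more in all 6 libraries. The curves are apart on the left and nearly coincide on the right, with medians of 11.2 and 12.3 FPKM, except near the top.

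Among the constantly expressed loci, abundant ones were fewer in gene-poor windows. Of these loci 8 of 410 (1.95%) had a mean of 100 FPKM or more, against 523 of 9704 (5.39%) in gene-rich windows, and 1 against 35 reached 1000 FPKM. Although they hold 2.77% of all listed loci, the gene-poor windows held between 1.16% and 1.18% of all FPKM in o11 libraries and between 1.07% and 1.12% in WT libraries.

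The most abundant gene-poor locus lay on chromosome 5 (112964229 to 112966353). This locus stood at 1143, 1490 and 2660 FPKM in o11 replicates 1 to 3, against 522, 768 and 1907 FPKM in WT replicates 1 to 3. Each o11 library was above the WT library of its number, but the genotypes overlapped, and both replicate 3 libraries were the highest of their genotype. Its log2 change of 0.85 did not pass in the fit without a term for the replicate number (SE 0.56, limma adjusted p = 0.564), but passed as a rise in the fit with that term (SE 0.15, limma adjusted p = 0.0229). It alone held 12.3% to 22.9% of the summed FPKM of gene-poor loci in o11 and 5.48% to 16.3% in WT.

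The next in level, on chromosome 8 (51608197 to 51609614), stood at 146, 150 and 369 FPKM in o11 libraries, against 519, 565 and 706 FPKM in WT libraries, without overlap. The next spanned only 270 bases on chromosome 3 (88276380 to 88276649), with 141, 256 and 280 FPKM in o11 and 93.8, 472 and 548 FPKM in WT, so the genotypes overlapped. FPKM of loci this short depends strongly on how fragments are assigned. Next came a locus on chromosome 4 (94458791 to 94464287), at 137, 109 and 124 FPKM in o11 libraries, against 285, 216 and 284 FPKM in WT libraries. Last of the 5 was a locus on chromosome 10 (58309702 to 58313911), at 158, 132 and 126 FPKM in o11, against 268, 208 and 254 FPKM in WT. Neither of these overlapped between genotypes. The loci on chromosomes 8, 4 and 10 fell in the fit with the replicate term, with log2 changes of -1.56, -1.07 and -0.80 (limma adjusted p = 0.0124, 0.00431 and 0.00996), but did not pass without it (limma adjusted p = 0.136, 0.065 and 0.108). After quantile normalization the locus on chromosome 8 passed without the term too (limma adjusted p = 0.0484). The call on chromosome 4 held in all 12 alternatives of the blocked fit, some of which compare the same pairs of libraries. Those on chromosome 5 and chromosome 8 were lost without any 1 library of replicate 1 or 2, and that on chromosome 10 without either library of replicate 1. For the 270-base locus neither fit passed the threshold (limma adjusted p = 0.855 without and 0.385 with the term), though it passed with the term when either library of replicate 1 was left out.

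The gap in expressed loci varied with the span of the loci, without a steady order. Gene-poor loci of 501 to 1000 bases were at 1 FPKM or more in 24.0% of cases as the mean of 6 libraries, against 46.2% for gene-rich loci of that span. Above 1000 and up to 2000 bases the gap was smaller, with 40.6% (192 loci) against 52.0%. Above 2000 and up to 5000 bases the shares were 52.8% and 75.4%, and above 5000 and up to 20000 bases 74.6% and 85.0%. Loci over 20000 bases had 82.4% (73 loci, 80.8% to 84.9% by library) in gene-poor windows and 80.3% (373 loci, 79.4% to 81.2%) in gene-rich windows, so there the order was reversed. For the 33 gene-poor loci of up to 500 bases, the share varied from 33.3% to 63.6% between libraries. When the gene-rich shares were reweighted to the span classes of the gene-poor loci, the mean difference was -14.6 percentage points in place of -16.4. For loci of 2 to 5 kb alone it was -22.5 points.

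**Figure D3:**
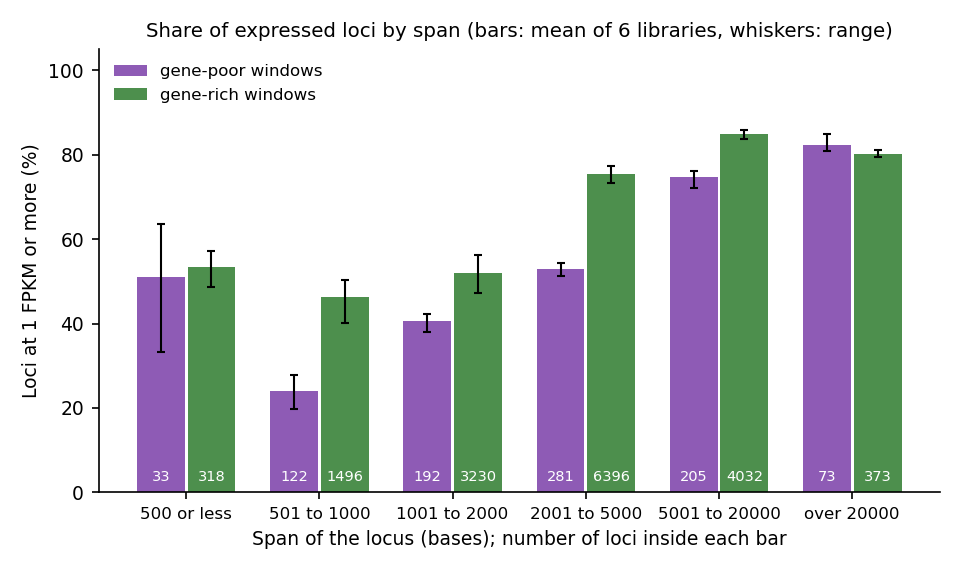
Share of loci at 1 FPKM or more (vertical axis, %) by span of the locus in bases (horizontal axis), for gene-poor (purple) and gene-rich (green) windows; bars are means of 6 libraries, whiskers the range over libraries, and the number of loci stands in each bar. Gene-poor bars are lower up to 20000 bases, except that whiskers overlap at 500 bases or less, and slightly higher above 20000 bases.

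The share of expressed loci did not follow the distance to the nearest listed locus in one direction. Gene-poor loci with the nearest listed neighbour at least 100 kb away were at 1 FPKM or more in 59.5% of cases (333 loci, range 58.0% to 60.4% over libraries). Those with a neighbour under 10 kb away had 52.3% (218 loci), and those between had 49.0% (355 loci). In gene-rich windows the order was the same, with 75.1% (127 loci), 71.5% (10914 loci) and 66.3% (4804 loci). The median span also differed between these classes, at 3188, 2906 and 2547 bases in gene-poor windows, and its part in the difference was not tested.

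The comparison of o11 with WT asks which transcripts depend on the genotype. Log2(FPKM + 1) values were fitted with limma for the 22314 loci at 1 FPKM or more in at least 3 libraries, and p-values were adjusted over all of them (Benjamini-Hochberg, threshold 0.05). Of the gene-poor loci 501 were tested (55.3%, against 71.8% of gene-rich loci). Those not tested reached 1 FPKM in no library (336), in 1 (44) or in 2 (25). Same-numbered libraries deviated together from their genotype means (r = 0.67 to 0.76), so each result is given both without and with the replicate number as a block in the model.

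The share of gene-poor loci called was near the share of all tested loci called, counting both directions. The share called as falls was somewhat higher than over all tested loci in values as deposited. This rested on 4 loci without the block, changed with the scaling and was not tested. Without the block 6 of 501 passed the threshold (1.20%, against 0.793% of all tested loci and 0.80% of gene-rich loci). Of the 6, 2 rose (0.40%, against 0.52% of all tested loci) and 4 fell (0.80%, against 0.273% of all tested loci). The 2 rises (0.40%) and 3 of the falls (0.60%) were of at least 2-fold on the log2(FPKM + 1) scale. Over all tested loci 0.762% were called at that size (0.511% rose and 0.251% fell). With the block 101 passed (20.2%, against 19.2% of all tested loci and 19.0% of gene-rich loci), of which 46 rose (9.18%, against 9.83% of all tested loci) and 55 fell (against 9.33% of all tested loci). After upper-quartile scaling, which sets the upper quartile of each library equal, 58 gene-poor loci rose and 47 fell with the block. Without the block 5 rose and 5 fell, so the balance of directions depended on the scaling. That scaling also moved the median log2 change of the full 22314 loci upwards, from 0.0031 to 0.042. Of these, 4312 were called with the block and 243 without it, but their rises and falls were not counted separately. A shift particular to gene-poor loci can thus not be read from these counts. Blocked calls of at least 2-fold were 4.79% of tested gene-poor loci, against 4.17% of all tested loci: 14 rose (2.79%, against 2.94%) and 10 fell (against 1.22%). The blocked count rested on the libraries of replicates 1 and 2, since it was 16 to 24 without any 1 of these 4 and 124 to 127 without either library of replicate 3. This was not particular to gene-poor loci. Over all tested loci the blocked count of 4276 became 469 to 831 and 5163 to 5260 in the same settings. All 6 loci called without the block were called with it.

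The whole distribution of changes was also close to that of other loci. The median log2 change was 0.00 in gene-poor and 0.01 in gene-rich windows, with quartiles of -0.23 to 0.30 and -0.21 to 0.26. The o11 and WT libraries did not overlap for 23.4% of tested gene-poor loci, against 21.5% of all tested loci. All 3 replicate pairs had one direction in 59.3% of tested gene-poor loci, against 59.1% of all tested loci. Among gene-poor loci with a mean of 20 to 50 FPKM, 9 rose and 21 fell in the blocked fit (of 90), and among those under 5 FPKM 17 rose and 7 fell (of 183). Gene-rich loci had 214 rises and 320 falls (of 2019) and 286 rises and 77 falls (of 3558) at the same levels. At 5 to 10 and 10 to 20 FPKM, gene-poor loci had 4 rises and 5 falls, and 10 rises and 12 falls. At 50 or more FPKM they had 6 rises and 10 falls. Gene-rich rises and falls at these 3 levels were 199 and 144, 238 and 271, and 195 and 221. Shares by level over all tested loci were not computed.

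**Figure D4:**
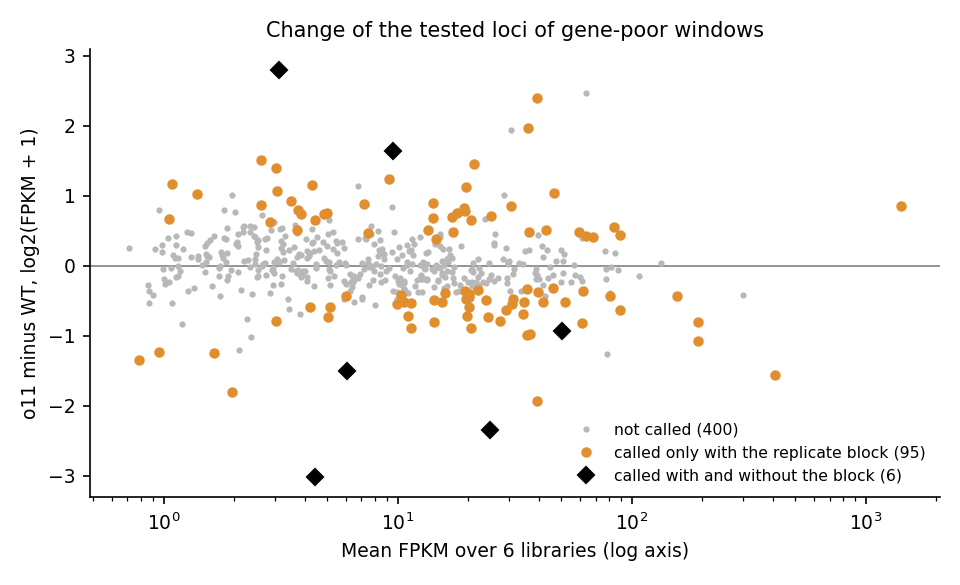
Change of the 501 tested gene-poor loci, as the o11 minus WT difference in log2(FPKM + 1) (vertical axis) against mean FPKM over the 6 libraries (horizontal axis, log scale); grey points were not called, orange points only with the replicate block and black diamonds with and without it. Points scatter about 0, and the 6 diamonds include 2 above and 4 below it.

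Among gene-poor windows with at least 20 tested loci, the share called in the blocked fit was highest on chromosome 7 from 70 to 80 Mb. There 10 of 30 loci were called (33.3%), of which 3 rose and 7 fell. The share was lowest on chromosome 3 from 80 to 90 Mb, with 0 of 26 in limma (5 at an unadjusted p under 0.05). Over all tested loci it was 19.2%. A window of 68 loci, on chromosome 1 from 120 to 130 Mb, also had 33.3% called (13 of 39). With 20 to 41 tested loci per window, these shares rest on few loci and were not tested against each other. The median log2 change of a gene-poor window lay between -0.19 (chromosome 10, 50 to 60 Mb) and 0.15 (chromosome 8, 50 to 60 Mb).

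The largest called fall was at a locus on chromosome 8 (42015205 to 42018417) that was nearly off in o11. It had 0.278, 0.0955 and 0.165 FPKM in o11 libraries, against 9.02, 6.68 and 10.3 FPKM in WT libraries. All 3 o11 values were far below the lowest WT value, and the WT mean was 48.3 times the o11 mean (log2 change -3.02, SE 0.21, limma adjusted p = 0.0107, and 0.00282 with the block). The next listed locus began only 0.417 kb after its end and showed no such difference. That neighbour (42018835 to 42021472) had 33.9, 39.1 and 58.6 FPKM in o11 libraries, against 31.1, 37.6 and 51.5 FPKM in WT libraries (log2 change 0.12, limma adjusted p = 0.901, and 0.295 with the block).

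Next in size was a fall on chromosome 5 (119485038 to 119493115), to 8.76, 5.82 and 7.53 FPKM in o11 libraries, against 41.3, 31.9 and 52.9 FPKM in WT libraries. The genotypes were far apart, with a WT mean 5.70 times the o11 mean (log2 change -2.35, SE 0.23, limma adjusted p = 0.024, and 0.00304 with the block). Its nearest listed neighbour, 74.7 kb away, was near 0 in every library, with at most 0.134 FPKM.

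Of the called rises, the larger in log2(FPKM + 1) belonged to a locus of only 255 bases on chromosome 5 (106130464 to 106130718). It had 9.10, 4.52 and 5.11 FPKM in o11 libraries and was listed at 0 in all 3 WT libraries (log2 change 2.80, SE 0.27, limma adjusted p = 0.0209, and 0.00467 with the block). A listed 0 can be a failed estimate, above all in so short a locus, and the size of the change depends on the pseudocount. A locus of 30.6 kb that begins 4.90 kb further on had 3.99, 5.19 and 3.07 FPKM in o11, against 3.75, 3.89 and 2.78 FPKM in WT (log2 change 0.17, limma adjusted p = 0.801).

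The other called rise, on chromosome 8 (55451581 to 55453873), was to 11.1, 14.4 and 19.7 FPKM in o11 libraries, against 3.29, 4.04 and 4.85 FPKM in WT libraries. The o11 mean was 3.71 times the WT mean, without overlap (log2 change 1.64, SE 0.24, limma adjusted p = 0.0473, and 0.00397 with the block). The other two loci that fell without the block are given to complete the count of 4, having been chosen after their values were seen. On chromosome 10 (36804977 to 36806236) a locus had 3.20, 2.27 and 2.47 FPKM in o11, against 10.3, 6.88 and 11.3 FPKM in WT (log2 change -1.51, SE 0.22, limma adjusted p = 0.0497, and 0.00711 with the block). Chromosome 3 held the other (76403107 to 76406921), with 36.5, 34.3 and 31.9 FPKM in o11, against 67.6, 62.3 and 68.3 FPKM in WT (log2 change -0.93, SE 0.13, limma adjusted p = 0.0429, and 0.00601 with the block). Its libraries lay close together within each genotype.

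**Figure D5:**
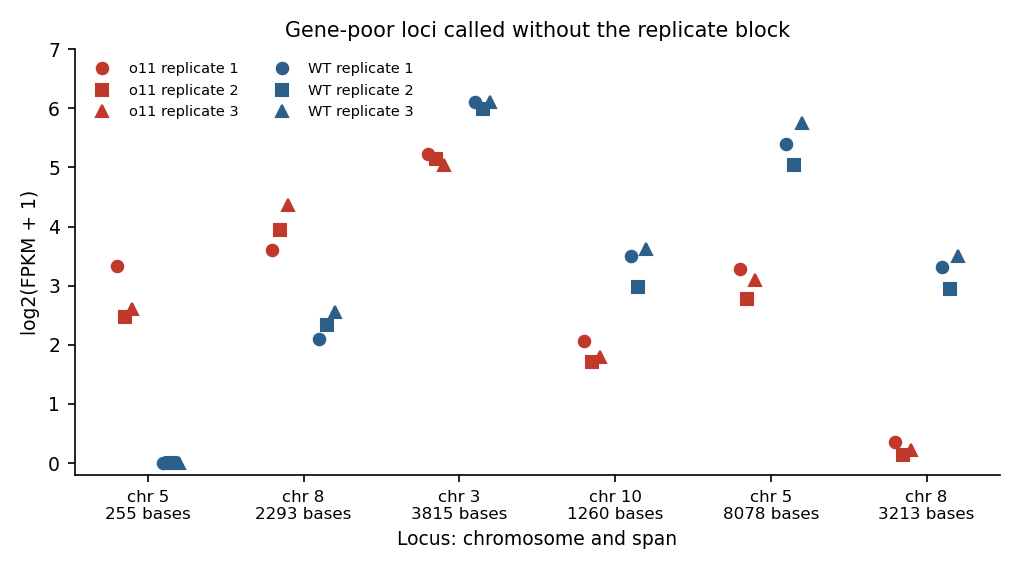
Level of the 6 gene-poor loci called without the replicate block, as log2(FPKM + 1) (vertical axis) in each library; red symbols are o11 and blue symbols WT, with a shape per replicate, and loci are named by chromosome and span (horizontal axis). The genotypes do not overlap at any of the 6, and the 255-base locus on chromosome 5 is listed at 0 in all 3 WT libraries.

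Without the block each of these 6 calls was lost when any 1 library was left out, except that the first (chromosome 8, 42015205) still passed without WT replicate 3, and each change kept its sign. The calls at 55451581 on chromosome 8 and 36804977 on chromosome 10 were also lost with a pseudocount of 0.1, and these and that at 76403107 on chromosome 3 with no filter on low values. The call at 76403107 was lost as well after quantile normalization (limma adjusted p = 0.0608) and in limma without the mean-variance trend (adjusted p = 0.0504). With the block 5 of the 6 passed in all 12 alternatives run. In that fit, leaving out either library of a replicate left the same pairs to compare the genotypes. The replicate 2 and 3 libraries alone likewise matched leaving out a library of replicate 1. The 12 alternatives are thus not separate checks. The chromosome 10 locus failed in 1, without WT replicate 1 (limma adjusted p = 0.0502). Apart from these 6, 4 gene-poor loci had 50 FPKM or more in 1 library and 0 in another, on chromosomes 3, 5 and 8, and none of the 4 passed either fit (limma adjusted p from 0.555 without and from 0.0949 with the block).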

How the data were processed

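Each of the 6 libraries had a file of FPKM values for 32666 loci given as chromosome, start and end. Per the file headers, the authors deposited FPKM. Per the submitters' processing notes, the build was B73 RefGen_v3 for all libraries, Bowtie 0.12.2 is listed for the replicate 1 libraries, and TopHat and Cufflinks (versions not given) for replicates 2 and 3. Nothing used here gives the annotation, read length, strand or scaling. FPKM of overlapping or near-identical loci is therefore uncertain, and 44 gene-poor loci shared their interval with another. Starts were taken to count from 0 and are printed counted from 1: of 3349 loci under 900 bases, 47.0% had an end minus start divisible by 3, against 27.1% with 1 added.

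Log2(FPKM + 1) values of 22314 loci (at least 1 FPKM in at least 3 libraries) were fitted for genotype with limma 3.58.1 (R 4.3.3; mean-variance trend on). Such changes understate those of low loci. Shares and medians were computed per library and given no p-value. Replicate numbers were taken to pair libraries because deviations from genotype means correlated at 0.75, 0.67 and 0.76 for numbers 1 to 3, above the limit of 0.1. This comes from the data, not the labels. Relative depth used loci under 0.3 FPKM in WT replicate 1 (tolerance 0.04, log2). For the replicate 2 and 3 libraries it rested on 348 to 450 loci, out of 2203 to 2754 used. Different tools were listed for them than for WT replicate 1. Named loci were the 2 largest rises and 2 largest falls without overlap and with a mean of 5 FPKM or more in the higher genotype, and the 5 loci of highest mean; windows were named for their extremes. Windows, loci and tests were chosen with earlier results of these data known. The fit was tested on simulated data.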

Additional observations from a re-analysis of the deposited data

How the results depend on the processing

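No gene names, depth or strand were available, so expressed means only 1 FPKM or more, and few loci (501 tested) and 3 libraries per genotype limit the counts. Alternatives within the blocked fit, upper-quartile scaling, equal exclusions for gene-rich windows, the reweighting by span and the restriction to constantly expressed loci were added after the data were seen. The share difference of -16.4 points stayed negative in every setting run. It was -18.5 and -13.7 with limits of 40 and 80 loci, -17.6 with gene-rich windows of 250 or more, -15.1 with windows shifted by 5 Mb, -22.5 for spans of 2 to 5 kb, -14.6 reweighted by span, and -10.4 and -10.1 at thresholds of 0.1 and 10 FPKM. The median level difference of -1.17 became -1.58 with a pseudocount of 0.1, -1.29 and -0.99 with limits of 40 and 80, -1.24 with 250, -1.52 for 2 to 5 kb, -1.12 with equal window weights and -0.11 for constantly expressed loci. Leaving out 1 library gave -16.6 to -16.1 points and -1.18 to -1.17. Equal exclusions for gene-rich windows gave -15.9 points and -1.14.

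Without the block, limma called 177 loci of all tested, 6 gene-poor and 91 gene-rich. With the replicate block these were 4276, 101 and 2165. With any 1 library left out they were 2 to 14, 0 to 1 and 0 to 4, with 57 to 89 gene-poor loci at an unadjusted p under 0.05. The replicate 2 and 3 libraries alone, for which the same tools were listed, gave 0, 0 and 0 (2219, 61 and 1086 at an unadjusted p under 0.05). No filter on low values gave 93 over all loci and 44 gene-rich. Gene-poor calls were 10 with upper-quartile scaling (243 over all tested loci). They were 1 and 14 with limits of 40 and 80 (of 91 and 1172 tested) and 3 for 2 to 5 kb (of 153). Gene-rich calls were 50 with 250 and 43 for 2 to 5 kb. In the blocked fit the 101 gene-poor calls were 17 in the replicate 2 and 3 libraries, 18 without o11 replicate 1, 24 without o11 replicate 2, 16 without WT replicate 1 and 23 without WT replicate 2, up to 127 without o11 replicate 3, and 20, 225 and 22 with limits of 40 and 80 and for 2 to 5 kb. The blocked count over all tested loci ran from 469 to 5260 with 1 library left out. Fewer libraries leave fewer residual degrees of freedom, and other limits change the loci counted. The part of either in these shifts, and why other settings moved values, was not tested.

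The gene-poor median change of 0.00 was 0.0097 with a pseudocount of 0.1, 0.017 with no filter on low values, -0.046 with quantile normalization, 0.033 with upper-quartile scaling, -0.023 with shifted windows and 0.020 for 2 to 5 kb. Leaving out 1 library gave -0.016 to 0.042, and -0.034 to 0.038 for its difference of -0.016 from the gene-rich median. The change of the 270-base chromosome 3 locus (88276380), -0.42 in limma, was -1.23 to 0.037 with 1 library left out, above 0 only without WT replicate 3. In this balanced design the fitted changes are the same with and without the block, so the block is no check of direction.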

Other observations

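Close neighbours in gene-poor windows were compared for the direction of their change. Among 59 pairs of consecutive tested loci under 50 kb apart and not overlapping, 32 (54.2%) had changes of the same sign, against 3559 of 6735 pairs (52.8%) in gene-rich windows. Both loci were called in the blocked fit in 5 gene-poor pairs (8.47%, against 3.96% of gene-rich pairs). No such share was computed over all tested loci, of which 19.2% were called singly, and 5 pairs are too few to read as a difference. Of the 5, 3 fell together, 1 rose together and 1 had opposite directions. The pairs that fell together were 0.719 kb apart on chromosome 10 (from 37913321) and 2.61 and 1.61 kb apart on chromosome 7 (from 70654664 and from 76561597). These counts were not tested, and fragments shared between such close loci cannot be told apart from separate changes here.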
